A study of Mus musculus with 12 samples.

Results

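The ATF4 arm of the integrated stress response was followed through 38 genes in cultured neonatal mouse cardiomyocytes. The genes were chosen by name, as transcription factors, enzymes, transporters, tRNA synthetases and secreted factors known to act with or downstream of ATF4, and Trib3 was set apart from them. The choice was made with earlier results of these data known. All 38 were found among the 55416 genes of the expression table, and all 38 were among the 21799 that were tested because their mean value reached 1. The 12 libraries of polyadenylated RNA form 4 groups of 3. Cells were kept in PBS or treated with phenylephrine (PE), an agonist of alpha-adrenergic receptors that drives hypertrophic growth, for 24 hours. Each treatment was combined with a negative-control GapmeR or with a GapmeR against lincRNA-p21. GapmeRs are antisense oligonucleotides that recruit RNase H to the RNA they pair with, so the genome of the cells is not changed. The groups are called PBS control, PBS knockdown, PE control and PE knockdown. Every group received a GapmeR, and no untreated cells are among the libraries. The labels give 1 GapmeR against lincRNA-p21 and do not give its sequence, a mouse strain or the GapmeR dose. Other effects of this GapmeR cannot be told apart from loss of lincRNA-p21 in these groups. They do not say whether replicates came from separate animals or cultures, so p-values speak for the spread among these libraries alone, which may be technical.

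In the integrated stress response, kinases that sense amino acid shortage, endoplasmic reticulum stress, haem shortage or double-stranded RNA phosphorylate the translation factor eIF2, which slows most protein synthesis while ATF4 protein is made. ATF4 pairs with C/EBP-family partners and binds composite elements in the promoters of genes for amino acid synthesis, amino acid import and tRNA charging, and the Ddit3 product CHOP and the phosphatase subunit encoded by Ppp1r15a act further downstream. In the heart the pathway is known from mitochondrial disease, pressure overload and ischaemia.

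RefSeq promoter windows (GRCm38.p6, 250 bases before to 50 bases after an annotated start of transcription, 300 bases in all) were found for 33 of the 38 genes. Slc7a5, Eif4ebp1, Cth, Wars and Nars had no entry. The C/EBP-ATF response element was searched as TGATGNAA on both strands, and it was present in 12 of 33 genes (36.4%), against 4.51% of all 27025 genes with a window and 2.88% of 13497 tested genes with one. The cAMP response element TGACGTCA, which reads the same on both strands, was present in 1 of 33, Ppp1r15a (3.03%), against 2.03% of all genes and 3.16% of tested genes with a window, and no member held both. The members are known ATF4 genes, so the share with the element was not independent of how they were chosen. A match describes these letters and is not a binding site shown by these data. The stretches around the matches of 6 genes are given because these genes differ in their change with the knockdown in PE. The element is in capitals and each stretch is read 5′ to 3′ on the strand of the gene.

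Nupr1, chr7:126625543-126625610, minus strand: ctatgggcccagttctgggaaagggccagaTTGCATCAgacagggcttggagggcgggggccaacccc
Asns, chr6:7693210-7693262, minus strand: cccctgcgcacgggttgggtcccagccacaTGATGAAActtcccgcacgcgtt
Slc7a11, chr3:50443623-50443709, minus strand: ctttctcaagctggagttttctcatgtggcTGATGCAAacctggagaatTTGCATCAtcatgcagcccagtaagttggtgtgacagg
Chac1, chr2:119351019-119351086, plus strand: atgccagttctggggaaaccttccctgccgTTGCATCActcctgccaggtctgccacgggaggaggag
Vldlr, chr19:27216790-27216857, plus strand: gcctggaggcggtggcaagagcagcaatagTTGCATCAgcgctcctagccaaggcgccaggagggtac
Pycr1, chr11:120643814-120643881, minus strand: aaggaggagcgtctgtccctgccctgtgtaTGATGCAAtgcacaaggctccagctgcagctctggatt

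The match of Nupr1 begins 110 bases before the start and that of Asns 23 bases before it. These starts are those of RefSeq. By the limits of the Asns gene given below, from another annotation, its match lies inside the gene. Slc7a11 carried 2 matches, which begin 66 and 47 bases before the start and read in opposite directions. The same letters also occur before Vldlr and Pycr1, which were not called with the knockdown in PE. Of the members with a window, 6 of 19 that were higher with the knockdown in PE held a match, as did 6 of the 14 that were not.

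**Figure D1:**
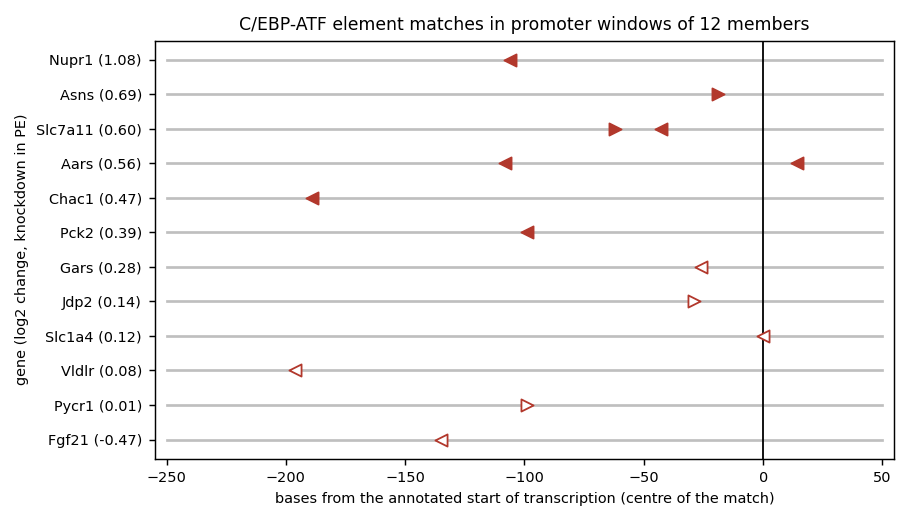
Positions of C/EBP-ATF element matches in the promoter windows of the 12 genes that hold one. The x axis gives bases from the annotated start of transcription, triangles point in the direction in which TGATGNAA reads relative to the gene, and filled triangles mark genes called higher with the knockdown in PE. Numbers in parentheses are the log2 change in that comparison. Of the 12 genes, 6 are filled, and the first bases of the matches lie from 200 bases before the start to base 10 of the transcript.

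The knockdown was seen in the targeted RNA. Values are normalised read counts, that is, reads of a gene over the size factor of its library. Trp53cor1, the gene of lincRNA-p21 (ENSMUSG00000085912.3, chromosome 17, 29057430 to 29079179, minus strand, GRCm38), was at 59.8, 70.6 and 63.2 in PBS control and 12.7, 22.6 and 10.1 in PBS knockdown libraries, and at 56.0, 34.0 and 34.7 in PE control and 8.56, 9.97 and 8.93 in PE knockdown libraries. Groups with and without the targeting GapmeR did not overlap in PBS or in PE, with log2 changes of -2.10 ± 0.30 and -2.03 ± 0.30 (limma standard error here and for all log2 changes, adjusted p = 2.0e-04 and 9.2e-05). Libraries held 21325485 to 22139681 reads in genes. Earlier work on these data had found 3 libraries far from their groups, and counts are also given without them: PBS control replicate 2, with 10.7% of reads mitochondrial, replicate 2 of PBS knockdown, with 4.33%, and replicate 1 of PE knockdown, with 10.04%. Each was at the end of its group in that share. All 8 cardiomyocyte markers were present in every group, with summed values of 629465 to 733628 in PBS control and 850349 to 1148390 in PE control. Markers of other cells were also present and none was at 0 in any group. These are bulk samples, in which fewer cells of a type and less RNA per cell cannot be told apart.

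With lincRNA-p21 knocked down in PE, most of the ATF4 genes were higher. Of 38 members, 22 rose and 1 fell (limma, Benjamini-Hochberg adjusted p under 0.05 over all genes tested), against 4.57% of all tested genes that rose and 7.14% that fell. Their median log2 change was 0.39, against 0.01 over all genes tested. Since the list was chosen with earlier results of these data known, its distance from all genes is not independent of them. For 27 members every PE knockdown library lay above every PE control library, and for 1 every library lay below, against 14.4% and 16.1% of all tested genes. The summed value of the 38 genes was 81780 to 83856 in PE control and 102177 to 104097 in PE knockdown libraries. By role, 5 of 7 transcription factors, 7 of 11 enzymes, 4 of 7 transporters, 3 of 5 tRNA synthetases, 2 of 4 secreted factors and receptors and 1 of 4 translation and feedback genes rose. Without PE knockdown replicate 3 the calls fell from 23 to 14 (over all genes from 2553 to 1758), and the 9 that were lost were Chac1, Psph, Aldh18a1, Slc7a5, Slc6a9, Slc38a2, Pck2, Cth and Nars. Without the 3 distant libraries 27 members were called, but calls over all genes also rose, from 2553 to 4672. When each library was given an equal total, 24 members rose and 0 fell, while the shares over all genes became 6.89% higher and 5.04% lower. Markers of other cells moved in the same comparison. The sum of cardiomyocyte markers was 686131 to 801976 in PE knockdown libraries, below the range in PE control. The sum of 8 fibroblast markers ranged from 37496 to 40793 in PE control and from 30266 to 34359 in PE knockdown libraries, and that of 8 endothelial markers from 5870 to 6347 and from 4983 to 5849. The sum of 6 smooth muscle markers was 52605 to 54521 in PE control and 38205 to 41488 in PE knockdown libraries. Limma called 1 of 8 cardiomyocyte, 2 of 8 fibroblast, 2 of 8 endothelial and 1 of 6 smooth muscle markers, all lower. EdgeR called 4, 2, 2 and 1 of these, and DESeq2 called 4, 3, 2 and 2. Over all genes edgeR called 4.2% higher and 7.2% lower, and DESeq2 7.7% and 11.8%. Of 8 leukocyte markers limma called 0, with 1 at an unadjusted p under 0.05, and edgeR and DESeq2 also called 0. Of 5 epicardial markers limma called 0, with 2 at an unadjusted p under 0.05, while edgeR called 0 and DESeq2 called 1. Over all genes 23.3% reached that unadjusted p by limma. The part of these shifts in the rise of the ATF4 genes was not tested.

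**Figure D2:**
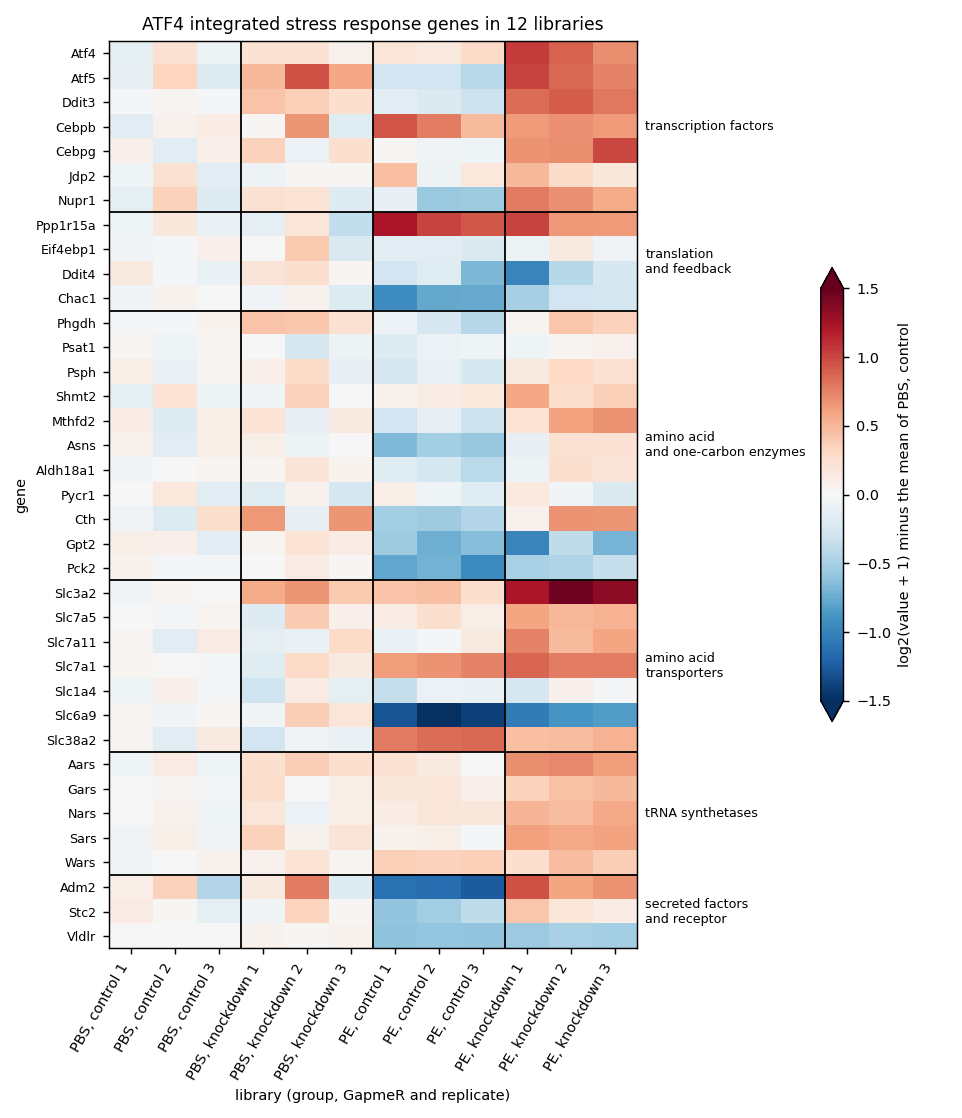
Log2(value + 1) of 37 members in each of 12 libraries, minus the mean of the 3 PBS control libraries (colour scale from -1.5 to 1.5, with the end colours for values beyond it). Rows are genes grouped by role and columns are libraries. Fgf21 is left out because single libraries held only 2 to 9 of its reads. Atf4, Atf5, Ddit3, Nupr1 and Slc3a2 are highest in the 3 PE knockdown columns, apart from PBS knockdown replicate 2 for Atf5, and Adm2, Slc6a9, Pck2 and Chac1 are low in PE control.

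Of the 7 transcription factors, 5 were higher with the knockdown in PE. Atf4 (ENSMUSG00000042406.9, chromosome 15, 80255184 to 80257541, plus strand) stood at 4965, 6432 and 5238 in PBS control, 6387, 6389 and 5749.9 in PBS knockdown, 6233, 6109 and 6733 in PE control and 11426, 10192 and 8954 in PE knockdown libraries. The 3 PE knockdown libraries lay above the other 9, and the first of them was the highest. Its log2 change with the knockdown in PE was 0.67 ± 0.11, a 1.60-fold difference (adjusted p = 4.3e-04). Atf5 (ENSMUSG00000038539.16, chromosome 7, 44812256 to 44816658, minus strand), a related factor whose translation is also raised by eIF2 phosphorylation, was at 3649, 3665 and 3339 in PE control and 8985, 8063 and 7453 in PE knockdown libraries. It rose by 1.20 ± 0.14 on the log2 scale, or 2.29-fold (adjusted p = 5.0e-06). Ddit3 (ENSMUSG00000025408.16, chromosome 10, 127290774 to 127296288, plus strand), which encodes CHOP, was at 421, 407 and 379.9 against 845, 886 and 818, also without overlap, and rose 2.11-fold (log2 1.08 ± 0.10, adjusted p = 3.6e-07). Nupr1, a small stress-induced nuclear protein, went from 173, 128 and 130.3 to 323, 304 and 278 (log2 1.08 ± 0.17, adjusted p = 2.0e-04). Cebpg, a C/EBP partner of ATF4, went from 553, 527 and 522 to 877, 887 and 1099.9 (log2 0.83 ± 0.12, adjusted p = 1.2e-04). The other C/EBP gene, Cebpb, did not pass the test, at 1676, 1488 and 1217 against 1356, 1403 and 1363 with overlapping libraries (log2 -0.08 ± 0.16, adjusted p = 0.84). Jdp2, which encodes a repressor of AP-1 sites, also overlapped between the groups (log2 0.14 ± 0.14, adjusted p = 0.63).

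Several of these genes share exons with neighbours on the opposite strand, and whether counting used strand is not given in the sources used here, which means that their reads may not have been told apart. Ddit3 shares 68 exon bases with Mars, whose mean value was 370% of that of Ddit3, and Cebpb shares 312 with Tmem189 (120%). Atf5 shares 82 with Nup62 (35.9%) and Jdp2 165 with Gm47863 (46.0%). Among the enzymes and transporters described next, Psph shares 452 with Cct6a (1903%) and Slc6a9 shares 46 with B4galt2 (305%). On the same strand, Ddit3 shares 105 exon bases with a second entry of that symbol, and Aars shares 1326 with Exosc6. Both of these neighbours had a mean value of 0. For Ddit3 the entry with the higher mean was used.

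Enzymes that rose include steps in the synthesis of asparagine, serine, proline and cysteine and 1 of the folate cycle. Not every step of serine and proline synthesis in the list was called. Asns (ENSMUSG00000029752.13, chromosome 6, 7675169 to 7693254, minus strand), which makes asparagine, was at 1253, 1399 and 1339 in PE control and 1822, 2337 and 2311 in PE knockdown libraries, a log2 change of 0.69 ± 0.11 (adjusted p = 2.1e-04). PE knockdown replicate 1 was the lowest of its group and still lay above all PE control libraries. In the serine branch, Phgdh, the first enzyme of serine synthesis, went from 1358, 1208 and 1070.3 to 1483, 1929.8 and 1837 (log2 0.53 ± 0.11, adjusted p = 0.0035). Psph, the last step, rose by a log2 change of 0.42 (adjusted p = 0.031), while Psat1, the step between them, was at 1996 to 2174 and 2173 to 2374 and did not pass (log2 0.13 ± 0.09, adjusted p = 0.47). Mthfd2 of the mitochondrial folate cycle went from 1131, 1272 and 1113 to 1597, 2100.2 and 2215 (log2 0.74 ± 0.13, adjusted p = 5.1e-04). Shmt2, which feeds the same cycle from serine, had a log2 change of 0.29 ± 0.12 that did not pass (adjusted p = 0.14), although its libraries did not overlap. In proline synthesis Aldh18a1 rose by a log2 change of 0.40 (adjusted p = 0.013), and Pycr1 had a log2 change of 0.01 ± 0.13 (adjusted p = 0.98). Cth, the cysteine-forming cystathionine gamma-lyase, was low in all groups, with 19 to 52 reads per library, and went from 20.5, 20.2 and 21.7 to 31.0, 47.8 and 47.7 (log2 0.96 ± 0.27, adjusted p = 0.023). Pck2, the mitochondrial phosphoenolpyruvate carboxykinase, rose by a log2 change of 0.39 (adjusted p = 0.014), and Gpt2, a mitochondrial alanine aminotransferase, was not called (log2 -0.05 ± 0.14, adjusted p = 0.89).

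Among the transporters, the subunits of the heteromeric exchangers rose. Slc3a2 (ENSMUSG00000010095.14, chromosome 19, 8706882 to 8723369, minus strand), the heavy chain that carries several light chains to the plasma membrane, was at 1865, 1948 and 1924 in PBS control, 2822, 3016 and 2504 in PBS knockdown, 2582, 2609 and 2278 in PE control and 4487, 5241 and 4864 in PE knockdown libraries. It was 1.95-fold higher with the knockdown in PE (log2 0.97 ± 0.10, adjusted p = 1.3e-06), and the PE knockdown libraries lay above all others. Of its light chains, the cystine exchanger Slc7a11 went from 415, 438 and 488 to 742, 618 and 669 (log2 0.60 ± 0.13, adjusted p = 0.0037). The leucine exchanger Slc7a5 went from 2969, 3246 and 2941 to 4152, 3894 and 3936 (log2 0.39 ± 0.11, adjusted p = 0.032), and this call was lost under 7 of 21 alternatives. The glycine transporter Slc6a9 rose by a log2 change of 0.48 (adjusted p = 0.024). Slc38a2 (ENSMUSG00000022462.8, chromosome 15, 96687392 to 96699730, minus strand), the neutral amino acid carrier SNAT2, was the only member called lower. It was at 17775, 18457 and 18724 in PE control and 14091, 14215 and 14835 in PE knockdown libraries (log2 -0.35 ± 0.11, adjusted p = 0.036). The groups did not overlap, but the call was lost under 10 of 21 alternatives, among them values rescaled to the same total. The cationic carrier Slc7a1 and the neutral carrier Slc1a4 were not called (log2 0.12 ± 0.11 and 0.12 ± 0.13, adjusted p = 0.55 and 0.64).

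Of the tRNA synthetases, those for alanine, serine and asparagine rose. Aars went from 5358, 5041 and 4637 to 7471, 7571 and 7088 (log2 0.56 ± 0.10, adjusted p = 4.7e-04), and Sars from 3485, 3565 and 3315 to 5166, 4972 and 5117 (log2 0.56 ± 0.09, adjusted p = 4.4e-04). Nars rose by a log2 change of 0.36 (adjusted p = 0.013). For Gars, the glycine enzyme, the libraries did not overlap but the change did not pass (log2 0.28 ± 0.09, adjusted p = 0.066). Wars, the tryptophan enzyme, had nearly equal means, 2185 ± 11.1 and 2196 ± 159 (SD, n = 3, log2 0.00 ± 0.09, adjusted p = 0.99).

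Of all members, the secreted peptide Adm2 had the highest fold. Adm2 (ENSMUSG00000054136.7, chromosome 15, 89322720 to 89324731, plus strand), a vasodilator of the calcitonin peptide family, was at 54.1, 64.4 and 36.8 in PBS control, 55.3, 87.7 and 44.0 in PBS knockdown, 22.6, 22.3 and 20.6 in PE control and 98.5, 76.8 and 81.4 in PE knockdown libraries, from 19 to 97 reads per library. It was 3.77-fold higher with the knockdown in PE (log2 1.91 ± 0.25, adjusted p = 3.1e-05). The PE control libraries were close together and lay below all others, whereas both PBS groups were spread widely. Stc2, a secreted glycoprotein, went from 141, 148 and 164 to 284, 242 and 229 (log2 0.73 ± 0.14, adjusted p = 0.0014). The lipoprotein receptor gene Vldlr was higher in every PE knockdown library, at 2075, 2119 and 2096 against 2171, 2252 and 2222, but by a log2 change of only 0.08 ± 0.08 that did not pass (adjusted p = 0.64). Fgf21, a metabolic hormone, had 2 to 9 reads per library, and a difference was not detectable at this depth (log2 -0.47 ± 0.52, adjusted p = 0.67).

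Among the translation and feedback genes, Chac1, an enzyme that degrades glutathione, went from 185, 210.4 and 211 to 253, 294 and 298 (log2 0.47 ± 0.12, adjusted p = 0.012). Ppp1r15a, the GADD34 subunit that directs dephosphorylation of eIF2, was at 1939, 1683 and 1593 and 1675, 1309.8 and 1296 with overlapping libraries (log2 -0.29 ± 0.14, adjusted p = 0.20). The mTORC1 inhibitor gene Ddit4 and the translation repressor gene Eif4ebp1 were not called (log2 -0.17 ± 0.16 and 0.18 ± 0.12, adjusted p = 0.60 and 0.42).

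**Figure D3:**
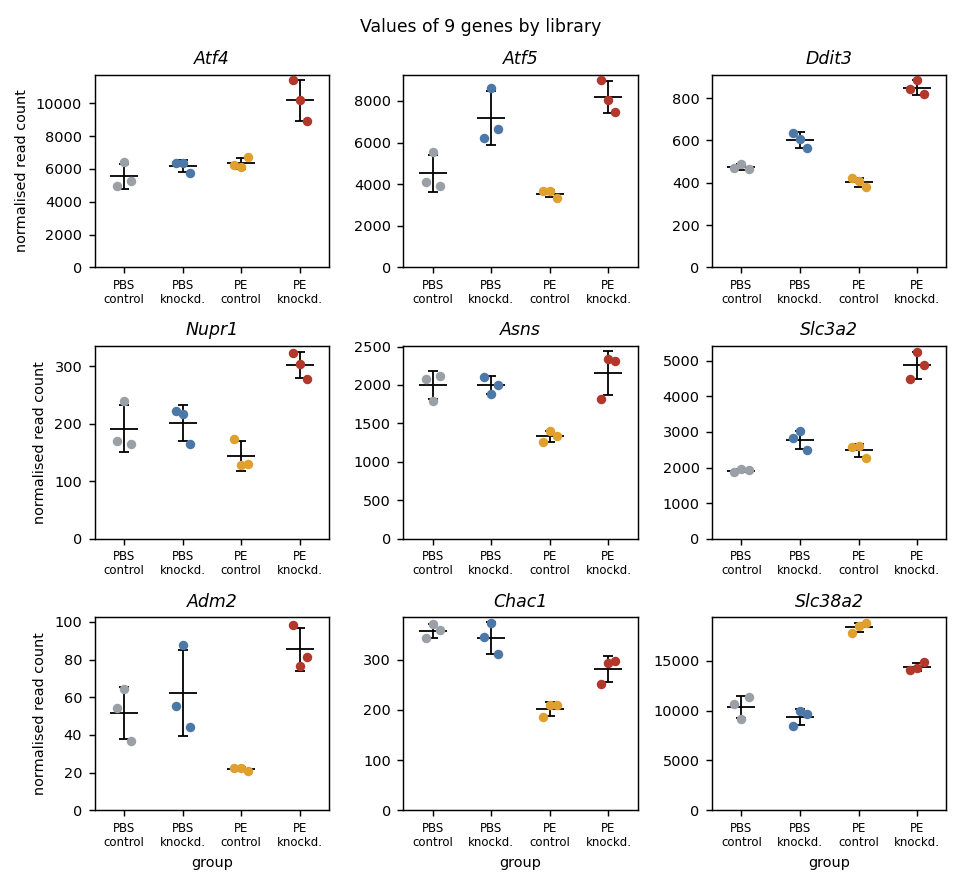
Normalised read counts of 9 members in each library (points, 3 per group), with the mean and SD (bars, n = 3). Each panel has its own y axis that starts at 0. In PE knockdown cells Atf4, Atf5, Ddit3, Nupr1, Asns, Slc3a2, Adm2 and Chac1 lie wholly above PE control, and Slc38a2 lies wholly below it.

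In PBS the same knockdown moved few of these genes past the threshold. Atf5 and Slc3a2 rose and 0 fell, 2 of 38 members against 1.36% of all genes tested that rose and 3.21% that fell. The median log2 change was 0.09, against 0.00 over all genes. All knockdown libraries lay above all control libraries for 6 members and below for 0, against 10.1% and 11.9% of genes. Atf5 was at 4091, 5555 and 3889.6 in PBS control and 6229.7, 8639.8 and 6669 in PBS knockdown libraries (log2 0.67 ± 0.14, adjusted p = 0.0057). Its call was lost without PBS control replicate 3 and when only the 6 libraries compared were fitted. Slc3a2 changed by 0.54 ± 0.10 (adjusted p = 0.0025) and was called under every alternative. Without the 3 distant libraries 7 members were called, 6 higher and 1 lower, while calls over all genes went from 997 to 1865. DESeq2 called 5 members, all higher, and 1448 genes in all. With the same total per library 4 members rose and 0 fell, against 2.21% of all genes higher and 2.30% lower. Ddit3, at 468, 489 and 463 against 636, 606 and 564, did not overlap and missed the threshold (log2 0.34 ± 0.10, adjusted p = 0.0501). Phgdh and Aars came next, with log2 changes of 0.36 ± 0.11 and 0.29 ± 0.10 (adjusted p = 0.084 and 0.10). Atf4 itself was at 4965 to 6432 and 5749.9 to 6389 (log2 0.16 ± 0.11, adjusted p = 0.50). Cell markers shifted here too. Their sum was 509397 to 563494 for cardiomyocytes and 18871 to 20759 for smooth muscle in PBS knockdown libraries, below the 629465 to 733628 and 22198 to 26312 in PBS control. For epicardial cells it was 4352 to 4830 in PBS control and 4855 to 5014 in PBS knockdown libraries, while the fibroblast, endothelial and leukocyte sums overlapped. The complement gene C1qc, a macrophage marker with low values, was at 8.54, 5.11 and 6.61 in PBS control and 15.4, 24.4 and 23.8 in PBS knockdown libraries. It was the only marker limma called (log2 1.52 ± 0.26, adjusted p = 0.0012). The leukocyte list did not move with it: 3 of 8 markers had positive log2 changes, and the median was -0.17. Of these 8, 1 lay wholly above and 2 lay wholly below PBS control. At an unadjusted limma p under 0.05 stood 2 of 8 cardiomyocyte, 2 of 8 fibroblast and 3 of 8 endothelial markers. So did 3 of 8 leukocyte, 2 of 6 smooth muscle and 2 of 5 epicardial markers, against 17.5% of all genes. EdgeR called 1 cardiomyocyte and 1 smooth muscle marker besides 1 leukocyte marker, and DESeq2 also called 2 fibroblast markers and 1 endothelial marker. Over all genes edgeR called 1.4% higher and 3.6% lower, and DESeq2 3.7% and 6.2%. The part of these shifts in the members' values was not tested.

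**Figure D4:**
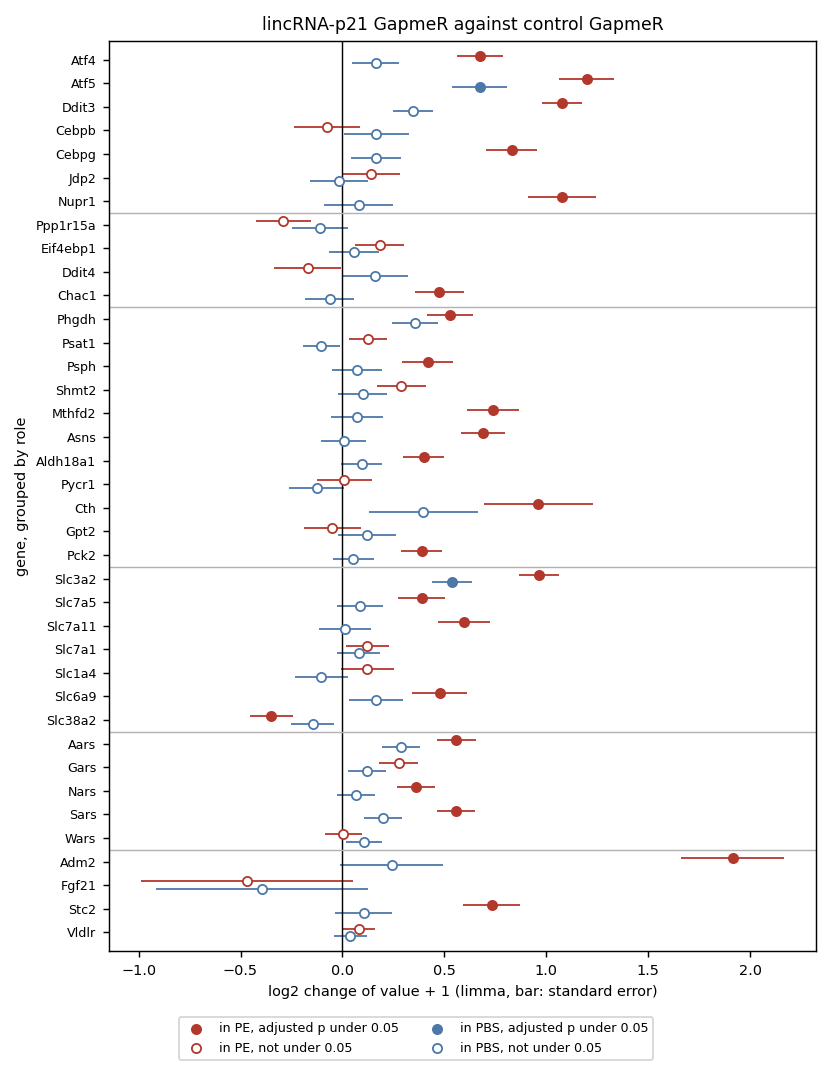
Log2 change of each member with the lincRNA-p21 GapmeR against the control GapmeR, in PE (red) and in PBS (blue), with limma standard errors as bars. Filled points passed an adjusted p of 0.05. In PE 23 points are filled, and in PBS only Atf5 and Slc3a2 are.

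PE by itself moved these genes in both directions, as it did genes in general. In control cells 6 of 38 members rose (15.8%) and 9 fell (23.7%), against 12.6% and 12.8% of all genes. Of all genes whose mean reached 50, 18.9% rose and 17.2% fell, so the share of members that rose was not above that of such genes. The members' median log2 change was -0.15, against -0.00 over all genes. Every PE library lay above every PBS library for 9 members and below for 18, against 21% and 20.7% of genes. Those that rose were Ppp1r15a (794, 935 and 775 in PBS, 1939, 1683 and 1593 in PE, log2 1.06 ± 0.14), Slc38a2 (0.83 ± 0.11), Cebpb (0.73 ± 0.16), Slc7a1 (0.68 ± 0.11), Slc3a2 (0.38 ± 0.10) and Wars (0.36 ± 0.09). Those that fell were Slc6a9 (302, 290.4 and 306 in PBS, 122, 104 and 113 in PE, log2 -1.40 ± 0.13), Adm2 (-1.17 ± 0.25), Chac1 (-0.82 ± 0.12), Pck2 (-0.82 ± 0.10), Gpt2 (-0.64 ± 0.14), Vldlr (-0.59 ± 0.08), Asns (-0.58 ± 0.11), Stc2 (-0.50 ± 0.14) and Aldh18a1 (-0.28 ± 0.10). Atf4 did not pass (log2 0.21 ± 0.11, adjusted p = 0.21), nor did Ddit3, which lay below PBS in all 3 PE libraries (log2 -0.23 ± 0.10, adjusted p = 0.091). With values rescaled to the same total per library, the split became 4 higher and 16 lower, and the shares over all genes became 7.71% and 19.7%. That scaling moved the median of genes whose mean reached 50 from 0.01 to -0.15. It multiplies all genes of a library alike. The members' distance to that median, -0.16, was therefore fixed in advance and is no check of the result. The calls of Slc3a2 and Wars were lost under it, that of Stc2 without PBS control replicate 1 or PE control replicate 1, and that of Aldh18a1 under 12 of 21 alternatives. PE also moved markers of other cells in control cells: 6 of 8 fibroblast markers fell, 7 of 8 endothelial markers rose and 1 fell, 5 of 8 leukocyte markers rose, 4 of 6 smooth muscle markers rose and 2 fell, 2 of 8 cardiomyocyte markers rose, and 1 of 5 epicardial markers rose and 1 fell. Their part in these values was not tested.

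In knockdown cells PE raised 17 members and lowered 5, against 13.4% and 14% of all genes, with a median log2 change of 0.28, against 0.00 over all genes. Every PE library lay above every PBS library for 17 members and below for 6, against 19.6% and 19.1% of genes. All 6 members called higher with PE in control cells were also called higher here. Further members that rose were Atf4 (0.72 ± 0.11, adjusted p = 8.0e-05), Cebpg (0.63 ± 0.12), Nupr1 (0.59 ± 0.17) and Ddit3 (0.50 ± 0.10, adjusted p = 6.7e-04), the light chains Slc7a11 (0.59 ± 0.13) and Slc7a5 (0.45 ± 0.11), Mthfd2 (0.42 ± 0.13) and the synthetases Aars, Gars, Sars and Nars (log2 0.39, 0.30, 0.40 and 0.45). Slc6a9 (-1.09 ± 0.13), Gpt2 (-0.81 ± 0.14), Ddit4 (-0.71 ± 0.16), Vldlr (-0.55 ± 0.08) and Pck2 (-0.48 ± 0.10) fell. Asns and Adm2, which fell with PE in control cells, were not called here (log2 0.10 ± 0.11 and 0.50 ± 0.25, adjusted p = 0.54 and 0.16). With the same total per library the split became 12 higher and 6 lower, and the shares over all genes became 9.04% and 20.4%. The members' distance to the median of genes whose mean reached 50, 0.28, was again fixed in advance under such rescaling and is no check. The calls of Mthfd2, Cebpb, Gars and Wars were each lost without PE knockdown replicate 2 or without replicate 3, and that of Nupr1 without PBS knockdown replicate 3. Of 21 alternatives in all, the call of Wars was lost under 14 and that of Cebpb under 7. Those of Mthfd2 and Gars were lost under 5 each. Of the markers, 7 of 8 fibroblast genes fell, 7 of 8 endothelial genes rose and 1 fell, and 6 of 8 leukocyte genes rose. Of the others, 3 of 6 smooth muscle genes rose and 2 fell, 2 of 8 cardiomyocyte genes rose, and 1 of 5 epicardial genes rose and 3 fell. Their part in these values was not tested.

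**Figure D5:**
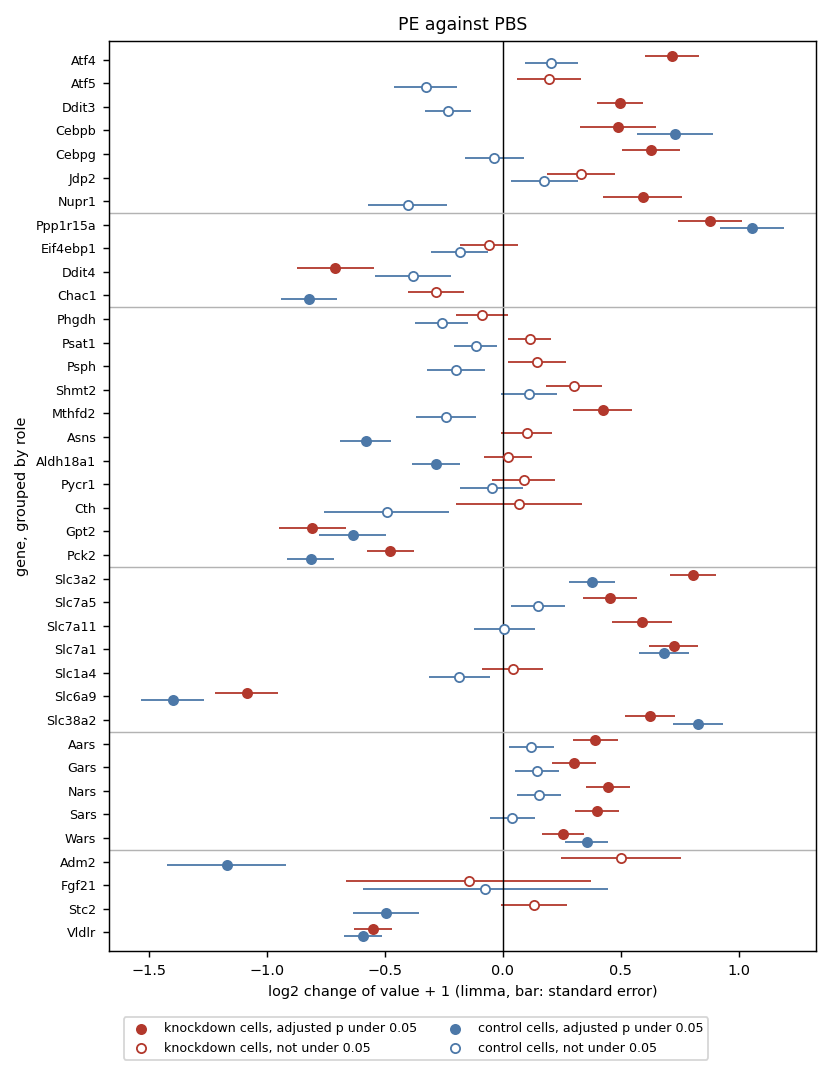
Log2 change of each member with PE against PBS, in knockdown cells (red) and in control cells (blue), with limma standard errors as bars. Filled points passed an adjusted p of 0.05. In knockdown cells 17 members are filled above 0 and 5 below, and in control cells 6 above and 9 below.

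Whether the PE response differed between the GapmeRs was tested as the interaction, which was positive where PE raised a gene more in knockdown cells. No member passed (limma, 0 of 38, with 0.055% of all genes passing as positive and 0% as negative). At an unadjusted p under 0.05, 16 of 38 members stood out, all positive, against 9.83% of all genes in either direction, while edgeR called 0 members and DESeq2 called 4 (Ddit3, Asns, Nupr1 and Adm2) of 124 genes in all. The median was 0.30, against -0.01 over all genes, and 31 of 38 values were positive. Ddit3 came closest (interaction 0.73 ± 0.14, adjusted p = 0.066). Adm2 followed (1.67 ± 0.36, adjusted p = 0.10), then Asns (0.68 ± 0.15, adjusted p = 0.12) and Nupr1 (1.00 ± 0.24, adjusted p = 0.14). Ddit3 was the only member whose PE libraries lay wholly below PBS in control cells and wholly above PBS in knockdown cells. How many of all genes show that pattern was not counted, so it does not set Ddit3 apart from genes in general. Without the 3 distant libraries 6 members passed: Ddit3, Asns, Mthfd2, Slc3a2, Cebpg and Adm2. Over all genes that setting raised the calls from 12 to 143. On simulated libraries the test found 75% of 2-fold and 21% of 1.5-fold interactions. In that simulation 200 of 21799 genes were changed, whereas PE in control cells gave 5543 calls in the real libraries. Whether the simulated shares hold with so many changed genes, with the distant libraries or for low members such as Cth and Fgf21 was not tested. They therefore do not give the power behind the interaction result for these members.

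The comparison of PE in control cells and that of the knockdown in PE both use the PE control libraries, so a low or high value there enters both. Read side by side in that order, Adm2 had log2 changes of -1.17 and 1.91, Chac1 of -0.82 and 0.47, and Asns of -0.58 and 0.69. For Slc6a9 they were -1.40 and 0.48, for Pck2 -0.82 and 0.39, and for Stc2 -0.50 and 0.73. Slc38a2 had 0.83 and -0.35, and Slc3a2 had 0.38 and 0.97. In 7 members no comparison gave a call, namely Psat1, Shmt2, Pycr1, Slc1a4, Eif4ebp1, Jdp2 and Fgf21.

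Divided by exon length, levels of the members ranged widely in PBS control cells. Eif4ebp1 (2478 ± 116 normalised reads per kb, SD, n = 3), Atf4 (2352 ± 331) and Atf5 (2264 ± 456) were the highest and did not differ beyond their spread. Gars (1951 ± 24.6) and Slc38a2 (1173 ± 125) followed. The lowest were Slc7a11 (32.0 ± 3.20), Cth (10.7 ± 1.90) and Fgf21 (5.88 ± 3.29).

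Other genes of the pathway were followed in lists chosen by function. With the knockdown in PE, 4.57% of all genes tested rose and 7.14% fell. Among genes whose mean reached 50 the shares were 6.61% and 11.9%. The share of each list that fell was at most 11.1% and did not exceed the latter. Of 19 genes for eIF2 kinases and translation control, 3 rose with the knockdown in PE and 0 fell: the double-stranded RNA kinase gene Eif2ak2 (log2 0.64 ± 0.13, adjusted p = 0.0025), the eIF2 phosphatase subunit gene Ppp1r15b (0.36 ± 0.10) and Eif2b5 of the guanine nucleotide exchange factor (0.30 ± 0.09). The list's median was 0.20. Of 18 other tRNA synthetase genes and their partners, Tars and Cars, for threonine and cysteine, rose (0.56 ± 0.12 and 0.34 ± 0.10), whereas Vars, for valine, fell (-0.99 ± 0.12, adjusted p = 1.7e-05). Of 21 other amino acid and folate genes, 5 rose and 2 fell, with the cationic carrier Slc7a3 (0.90 ± 0.16), Shmt1 (0.54 ± 0.10), Sesn2 (0.47 ± 0.13) and Slc1a5 (0.41 ± 0.10) the largest. The 2 that fell, chosen for naming after their values were seen, were the folate gene Mthfd1 (-0.39 ± 0.09) and the branched-chain aminotransferase gene Bcat2 (-0.34 ± 0.11). Of 27 other ATF4 and CHOP targets and partners, 6 rose and 3 fell. The largest changes were in the sterol acyltransferase gene Soat2 (2.33 ± 0.31), the autophagy receptor gene Sqstm1 (1.09 ± 0.10), the oxidoreductase gene Ero1l (1.07 ± 0.13) and Gadd45a (1.05 ± 0.17). Those that fell, named after the same look, were Cebpd (-0.59 ± 0.16), the collagen receptor gene Ddr2 (-0.54 ± 0.10) and Atf6 (-0.44 ± 0.09). Of 19 endoplasmic reticulum chaperone and unfolded protein response genes, limma called 0, while edgeR called 0 and DESeq2 called 1. By limma 1 of them stood at an unadjusted p under 0.05, against 23.3% of all genes. The largest changes were in the co-chaperone gene Dnajb9 (0.48 ± 0.17, adjusted p = 0.070) and the lectin chaperone gene Canx (0.21 ± 0.11, adjusted p = 0.24). Of 10 mitochondrial stress genes limma called only the protease gene Yme1l1, and it fell (-0.45 ± 0.14).

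Trib3, a pseudokinase gene induced by ATF4 and CHOP that was kept out of the 38, gives a point of reference. It was at 591, 552 and 539 in PBS control, 721, 878 and 704 in PBS knockdown, 179.9, 164 and 156 in PE control and 822, 1108 and 974 in PE knockdown libraries. The PE control libraries lay far below the other 9. The log2 change with the knockdown was 2.52 ± 0.12 in PE (adjusted p = 2.1e-10) and 0.45 ± 0.12 in PBS (adjusted p = 0.043, lost under 12 of 21 alternatives). Adm2, the member with the largest change in PE, stood at 1.91.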

How the data were processed

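The authors deposited a single table, which gives the normalised signal of 55416 genes for each of 12 libraries. Per the submitters' processing notes, STAR, SAMtools and featureCounts were used with GRCm38.p6. Which versions and annotation release were used, and whether strand was, is not given in the sources used here. Each column holds read counts divided by 1 size factor, and 100% of values gave whole reads after multiplying by it (tolerance 0.001). Factors ran from 0.921 to 1.11. Identifiers were matched without version to GENCODE M21 symbols (52135 of 55416). Gene positions and exon lengths come from that annotation. The table has 0 columns of no sample.

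Genes whose mean value reached 1 entered the test, made on log2(value + 1) with limma 3.58.1 (trended prior, R 4.3.3), with 4 group means over all 12 libraries. P-values are two-sided and Benjamini-Hochberg adjusted over 21799 genes, with a threshold of 0.05. A fold is 2 to the power of that log2 change, so it understates the change of low genes. Groups came from the labels, and replicate numbers were not treated as pairs. EdgeR 4.0.16 and DESeq2 1.42.0 on recovered whole reads were among the alternatives, with another pseudocount (0.1), other filters and scalings, a replicate block and each library left out. The members and the other gene lists were chosen with earlier results of these data known. Every member was named. For each other pathway list and comparison, up to 4 called genes with the largest change were named, or 2 where none was called, and genes named beyond this are said to be. A result that the rule would name is not reported here. The procedure was tested on simulated data, in which 200 of 21799 genes were changed. For the knockdown in PE it recovered 97% of changes of 2-fold and 57% of those of 1.5-fold. The real libraries gave 2553 calls in that comparison, and some lay far from their groups. Whether the simulated shares hold for them was not tested.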

Additional observations from a re-analysis of the deposited data

Results flagged for a closer look

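Trib3, the reference gene outside the 38, was looked at again because its response to PE differed between the GapmeRs in the test of the difference itself. Its interaction was 2.08 on the log2 scale (limma standard error 0.17, adjusted p = 6.2e-06). PE changed it by -1.75 ± 0.12 in control cells and by 0.33 ± 0.12 in knockdown cells (adjusted p = 2.9e-09 and 0.051). No member of the 38 passed that test by limma.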

How the results depend on the processing

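Of 23 members called with the knockdown in PE, 14 were called under all 21 alternatives: Atf4, Atf5, Ddit3, Asns, Phgdh, Mthfd2, Slc7a11, Slc3a2, Nupr1, Cebpg, Adm2, Aars, Sars and Stc2. Leaving out 1 library at a time gave 14 to 25 calls, and the lowest count came without PE knockdown replicate 3. For PE in control cells 11 of 15 calls held under every alternative, and for PE in knockdown cells 16 of 22 did. Without the 3 distant libraries these counts of calls were 27, 21 and 24, while calls over all genes went from 2553 to 4672, from 5543 to 7421 and from 5967 to 6388. The knockdown in PBS gave 5 calls with DESeq2, 1 with only the libraries compared, 4 with the same total per library and 7 without the 3 distant libraries. Leaving out 1 library gave 1 to 4, with 1 without PBS control replicate 3 and 4 without PE knockdown replicate 1. The interaction gave 1 call with genes filtered to those that reached a CPM of 1 in 3 libraries (Ddit3), 4 with DESeq2, 6 without the 3 distant libraries and 0 to 2 with 1 library left out. The library left out was PBS knockdown replicate 1 (Ddit3), PBS knockdown replicate 2 (Ddit3 and Adm2) or PE knockdown replicate 1 (Asns) where calls appeared. The cause of these shifts was not tested. Where a group was left with 2 libraries, the spread was pooled over groups. With the replicate number as a replicate block, 14, 21, 22, 2 and 0 members were called for PE in control cells, PE in knockdown cells, the knockdown in PE, the knockdown in PBS and the interaction. The residuals of the 18 same-number pairs correlated between -0.435 and 0.409, with 4 over 0.1, so the numbers were not taken as pairs. No called direction reversed under any alternative. With 2 to 9 reads of Fgf21 and 19 to 52 of Cth per library, counting error limits both.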

Other observations

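The other pathway lists also moved with PE, where 12.6% of all genes tested rose and 12.8% fell in control cells, and 13.4% and 14% did so in knockdown cells. Of 19 genes of eIF2 kinases and translation control, PE raised 8 and lowered 0 in control cells, led by Eif2b3 (log2 0.73 ± 0.15), Eif2s1 (0.57 ± 0.13), Denr (0.50 ± 0.15) and Eif2b4 (0.48 ± 0.10). In knockdown cells it raised 11, led by Eif2b3 (1.10 ± 0.15), Eif2s2 (0.93 ± 0.17), Eif2s1 (0.92 ± 0.13) and Denr (0.88 ± 0.15), and lowered 1, the PERK kinase gene Eif2ak3 (-0.46 ± 0.12). Of 18 other tRNA synthetase genes and their partners, 9 rose and 0 fell in control cells. The largest changes were in the synthetase complex partner Eef1e1 (1.12 ± 0.16), Kars, for lysine (0.54 ± 0.09), Rars, for arginine (0.54 ± 0.12), and Aimp1 (0.49 ± 0.13). In knockdown cells 12 rose and 0 fell, led by Eef1e1 (1.20 ± 0.16), Tars (0.87 ± 0.12), Aimp2 (0.74 ± 0.14) and Rars (0.65 ± 0.12). Of 21 other amino acid and folate genes, 8 rose and 3 fell in control cells. Slc7a3 (-1.31 ± 0.16) and the folate gene Aldh1l2 (-1.15 ± 0.10) were lower, and Mthfd1 (0.56 ± 0.09) was higher. In knockdown cells 6 rose and 4 fell, with Bcat1 (1.15 ± 0.15) and Glul (0.58 ± 0.11) higher and Aldh1l2 (-0.79 ± 0.10) and Bcat2 (-0.74 ± 0.11) lower.

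Of 27 other ATF4 and CHOP targets and partners, PE raised 7 and lowered 6 in control cells. Gdf15, a secreted stress factor, rose by 1.77 ± 0.15 and Atf3 by 1.10 ± 0.15, while Soat2 changed by -1.32 ± 0.31 and the BH3-only gene Bcl2l11 by -0.91 ± 0.12. In knockdown cells 12 rose and 5 fell, with Gdf15 at 1.15 ± 0.15, Bcl2l11 at -1.10 ± 0.12, Soat2 at 1.04 ± 0.31 and Pmaip1 at 0.89 ± 0.16. Of 10 mitochondrial stress genes 5 rose and 1 fell in control cells and likewise in knockdown cells. Those that rose include the chaperone genes Hspd1 (0.57 ± 0.14 and 0.86 ± 0.14), Hspe1 (0.45 ± 0.14 and 0.78 ± 0.14) and Hspa9 (0.48 ± 0.12 and 0.81 ± 0.12) and the protease gene Clpp (0.65 ± 0.11 and 0.54 ± 0.11). The 1 that fell was Dele1 (-0.33 ± 0.09 and -0.37 ± 0.09), which, like Eif2ak3, was chosen for naming after its values were seen. Of 19 endoplasmic reticulum chaperone genes 0 rose and 5 fell with PE in control cells, led by Sdf2l1 (-0.50 ± 0.13), Sel1l (-0.45 ± 0.09), Edem1 (-0.34 ± 0.11) and Dnajc3 (-0.29 ± 0.10). In knockdown cells 1 rose, Canx (0.35 ± 0.11), and 3 fell, Sdf2l1 (-1.004 ± 0.13), Edem1 (-0.51 ± 0.11) and Sel1l (-0.48 ± 0.09).

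With the knockdown in PBS, 1.36% of all genes rose and 3.21% fell. Of the 27 other ATF4 and CHOP targets 3 rose, Gdf15 (0.80 ± 0.15), Sqstm1 (0.65 ± 0.10) and Ero1l (0.55 ± 0.13), and 2 fell, of which Ddr2 (-0.52 ± 0.10) changed the most. In the amino acid list Pycrl rose (0.43 ± 0.11) and Aldh1l2 fell (-0.64 ± 0.10). Eif2b5 rose (0.36 ± 0.09) and Vars fell (-0.52 ± 0.12), each the only gene of its list that was called. Of the endoplasmic reticulum and mitochondrial lists, limma, edgeR and DESeq2 each called 0. By limma 1 and 0 genes stood at an unadjusted p under 0.05, against 17.5% of all genes. The largest changes there were in Sdf2l1 (0.30 ± 0.13), Ern1 (0.19 ± 0.13), Clpp (0.21 ± 0.11) and Dele1 (0.18 ± 0.09). For the interaction limma called 0 genes of these lists, with 5 of 19, 2 of 18, 6 of 21, 6 of 27, 1 of 19 and 0 of 10 at an unadjusted p under 0.05, in the order eIF2, synthetase, amino acid, ATF4 and CHOP, endoplasmic reticulum and mitochondrial genes. Over all genes 9.83% reached that unadjusted p. In the ATF4 and CHOP list edgeR called 1 and DESeq2 called 2, and in the others both called 0. Soat2 had the largest value (2.36 ± 0.44, limma adjusted p = 0.055), and Car6 followed in its list (0.92 ± 0.71). In the other lists the largest were Eif2ak2 (0.66 ± 0.18) and Eif2s2 (0.53 ± 0.24), Tars (0.56 ± 0.16) and Vars (-0.47 ± 0.18), Slc7a3 (0.83 ± 0.22) and Bcat1 (0.69 ± 0.21), Sdf2l1 (-0.50 ± 0.19) and Dnajb9 (0.45 ± 0.23), and Hspa9 (0.33 ± 0.17) and Hspe1 (0.32 ± 0.19).

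The mean standardised log2 level of the 31 members called in any comparison was set against 11557 genes outside the list over the 12 libraries. The closest were Sqstm1 (Pearson r 0.96), the interferon-induced GTPase gene Igtp (0.96), the ubiquitin ligase genes Arih2 (0.94), Dtx3l (0.94) and Trim21 (0.93), Magef1 (0.93), Zfp12 (0.93), Traf6 (0.93), H2-Q4 (0.93) and Zfp664 (0.93). These values describe 12 libraries in 4 groups that all genes share, and they carry no test. The members' mean level was highest in the PE knockdown libraries, so a rise there follows from how these genes were picked. Their log2 changes with the knockdown in PE ran from 0.31 (Arih2) to 1.74 (Igtp). The same choice favours positive interactions of PE and knockdown, which ran from 0.16 (Zfp12) to 1.155 (Igtp). Of these genes only Dtx3l passed the interaction test over all genes (0.84, limma adjusted p = 0.020).

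Libraries differed in how often they were the highest or lowest of their group over the members. PBS knockdown replicate 2 was the highest of its group for 23 of 38 members, with a median deviation from the group mean of 0.09 on the log2 scale. This was the largest deviation of any library. PE knockdown replicate 1 was the lowest of its group for 21 members and the highest for 14, with a median deviation of -0.03. That deviation was no larger than those of PE control replicate 3 (-0.03, lowest for 18) and PBS knockdown replicate 1 (-0.04). The same counts over all genes were not made.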
